A study of Rattus norvegicus with 12 samples.

Results

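Mitosis and cytokinesis genes are described here in INS-1 832/13, an insulin-secreting line from a rat insulinoma, after adenoviral expression of ChREBPβ. The set was chosen by name. It lists 49 genes that act between the entry into mitosis and the separation of the daughter cells, of which 48 are in the count table (Ccnb2 is not) and all 48 had enough reads to be tested, out of 14669 genes tested and 28727 named entries. The cells carried an adenovirus for GFP, the control, or one for mouse ChREBPβ with an mCherry tag. They were kept in 2 mM or 11 mM glucose for 48 h, by the labels and the study's figure legend. The study's general methods for adenovirus give a longer time in glucose. Each of the 4 combinations of virus and glucose has 3 libraries (a, b and c), which the study's figure legend calls independent experiments, so there are 12 libraries in all. All groups are the same tumour line, every group carries a virus, and the added ChREBPβ came from a virus rather than the cells' own gene.

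ChREBP, encoded by Mlxipl, is a transcription factor that responds to glucose metabolism, and its short isoform ChREBPβ lacks the domain that holds the long isoform inactive in low glucose. A cell enters mitosis when the kinase Cdk1 is activated by a cyclin. Chromosomes are then condensed, attached through kinetochores to the spindle and held by the spindle checkpoint until all are attached. The anaphase-promoting complex then marks securin and cyclin B for destruction, and the central spindle guides cytokinesis. Most of these genes are transcribed together late in the cell cycle, and β-cells, which divide rarely in the adult, are known to raise them when glucose drives them to divide. INS-1 cells are a growing tumour line and express the program in every condition. In RNA of a whole culture, more cells in mitosis and more of these transcripts per dividing cell cannot be told apart.

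Promoter sequences are shown for the mitotic kinase gene and its cyclin, since most of these genes share a few short promoter letters. They are from RefSeq on the GRCr8 assembly and run from 250 bases before to 50 bases after the start of the gene, 5′ to 3′ on the coding strand. Capitals mark every match to TTTGAA or TTCGAA (the letters of the cell cycle homology region, CHR, that the MuvB complex binds), to CCAAT (the letters bound by the factor NF-Y) and to CACGTG (an E-box, the repeated unit of the element that ChREBP binds with its partner Mlx), on either strand. CACGTG was found in neither window. The Cdk1 window is chr20:19265043-19265342 on the plus strand, and the Ccnb1 window is chr2:33655176-33655475 on the minus strand.
Cdk1: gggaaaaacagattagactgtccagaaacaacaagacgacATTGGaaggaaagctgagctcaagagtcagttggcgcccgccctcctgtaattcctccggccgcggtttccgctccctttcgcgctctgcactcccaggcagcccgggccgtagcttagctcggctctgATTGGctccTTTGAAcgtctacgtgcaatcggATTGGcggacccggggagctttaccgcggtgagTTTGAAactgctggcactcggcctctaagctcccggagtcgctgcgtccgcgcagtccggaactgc
Ccnb1: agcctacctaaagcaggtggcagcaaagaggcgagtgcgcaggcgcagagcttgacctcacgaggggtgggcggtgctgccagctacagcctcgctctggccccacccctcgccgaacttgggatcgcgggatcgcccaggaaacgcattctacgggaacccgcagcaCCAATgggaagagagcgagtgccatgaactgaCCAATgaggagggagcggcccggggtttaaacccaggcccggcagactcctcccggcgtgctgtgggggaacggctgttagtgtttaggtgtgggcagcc
The Cdk1 window holds TTTGAA at -72 to -67 and at -16 to -11 relative to the start, and CCAAT on the opposite strand 3 times (ATTGG as printed). The Ccnb1 window holds CCAAT 2 times, at -82 to -78 and at -50 to -46, and neither TTTGAA nor TTCGAA. Since other forms were not searched for, this does not show that the window lacks a CHR.

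A window was available for 42 of the 49 genes; Ccna2, Foxm1, Ube2c, Aurkb, Incenp, Tpx2 and Racgap1 had none in the table used. TTTGAA or TTCGAA was found in 31 of the 42 (73.8%), against 19.7% of the 33469 windows of all genes. CCAAT was also found in 31 of the 42 (73.8%), against 37.5% of all windows. CACGTG was found in 3, those of Anln, Espl1 and Ttk (7.14%), against 6.42% of all windows. Either of these CHR forms was found in 20 of the 28 windows of genes higher with ChREBPβ at 2 mM. Of the 13 windows of those not called, 10 held either form. The 43 windows belong to 42 genes, and a match of letters is a description of the sequence and not of binding.

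The libraries held 25754488 to 60531215 counts each, and the 3 GFP libraries at 2 mM are among the 4 shallowest. The β-cell markers Ins1, Ins2, Pdx1, Nkx6-1, Mafa, Neurod1, Iapp and Chga were all present, with a summed level of 22900 to 25800 CPM (reads counted on a gene, scaled to the same total in each library) in GFP cells at 2 mM, 18500 to 20400 at 11 mM, 12000 to 12400 in ChREBPβ cells at 2 mM and 11300 to 11800 at 11 mM. The β-cell sum therefore moved opposite to the mitotic genes across the groups, and its part in the results was not tested. Markers of fibroblasts summed to at most 0.179 CPM (2 of 3 at 0 in every library) and markers of immune cells to at most 1.18 CPM (1 of 4 at 0). Acinar markers summed to 3.73 to 6.78 CPM, endothelial markers to 1.33 to 3.09 CPM, and markers of other islet endocrine cells, mostly Gcg, to 1590 to 1720 CPM with GFP and 429 to 502 CPM with ChREBPβ. The rat Mlxipl entry, to which reads of the mouse transgene need not map, was lower in the libraries labelled ChREBPβ at 2 mM (log2 fold change -0.33 ± 0.052, SE, adjusted p = 2.03e-05), so it does not check the labels. A separate entry named ChREBPb, whose sequence is not given in the sources used here, measured 73.2 to 82.2 CPM in GFP cells and 89.7 to 90.7 CPM in ChREBPβ cells at 2 mM, and 64.7 to 73.3 CPM and 81.5 to 98.3 CPM at 11 mM. It differed by 0.21 ± 0.065 at 2 mM (adjusted p = 0.00841, under the minimum fold of 1.2) and was higher by 0.37 ± 0.064 at 11 mM (adjusted p = 6.9e-05), a 1.29-fold difference. Pklr, a known ChREBP target, was higher in the ChREBPβ libraries by 1.69 ± 0.048 at 2 mM and 1.08 ± 0.046 at 11 mM.

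The level of the mitotic genes was higher with ChREBPβ and with glucose. Summed over the 48 genes, the level was 6821.5 to 6932.5 CPM in GFP cells at 2 mM glucose and 8151.6 to 8599.6 CPM at 11 mM. In ChREBPβ cells the sum was 8573.1 to 8762.6 CPM at 2 mM and 9156.7 to 9616.3 CPM at 11 mM. The ranges of GFP cells at 11 mM and ChREBPβ cells at 2 mM overlap, and the other groups are apart. CPM values are scaled with edgeR's TMM factors, and levels are compared between libraries and not between genes, since they are not per transcript length.

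A gene was called higher or lower with an adjusted p under 0.05 (edgeR quasi-likelihood test, Benjamini-Hochberg over all 14669 genes) and a fold change of 1.2 or more, which is the study's own minimum. At 2 mM glucose, ChREBPβ raised 34 of the 48 genes and lowered 0, where 21% of all tested genes were called higher and 23.2% lower. The median log2 fold change of the 48 was 0.34, and -0.02 over all tested genes. At 11 mM glucose, 12 of the 48 were higher and 0 lower, where 14.3% of all genes were higher and 19.1% lower, and the median was 0.14 against -0.02. Unadjusted p was under 0.05 for 2 lower genes at 2 mM and for 3 at 11 mM, and DESeq2 called 0 lower in either. Here and below, counts by unadjusted p and by DESeq2 are given without the share of all genes. Changes were modest, and no mitotic gene reached 2-fold in any comparison.

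The counts at both concentrations changed with the scaling. When counts were scaled by library totals only, the median of all genes moved to -0.12 at 2 mM and -0.10 at 11 mM. Of the mitotic genes, 22 were then called higher and 1 (Spc24) lower at 2 mM, and 4 were higher and 3 (Kif23, Spc24 and Spc25) lower at 11 mM. With upper quartile factors, 6 were higher and 2 (Kif23 and Spc24) lower at 11 mM. The share of all genes called under these scalings is not given here, so the counts do not show whether the set stands out. Relative to the median of all genes, the median of the 48 was 0.361 higher at 2 mM and 0.162 at 11 mM under TMM factors and under library totals. Scaling shifts the log2 fold changes of all genes nearly alike, so this difference is the same by construction and does not test the scaling.

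**Figure D1:**
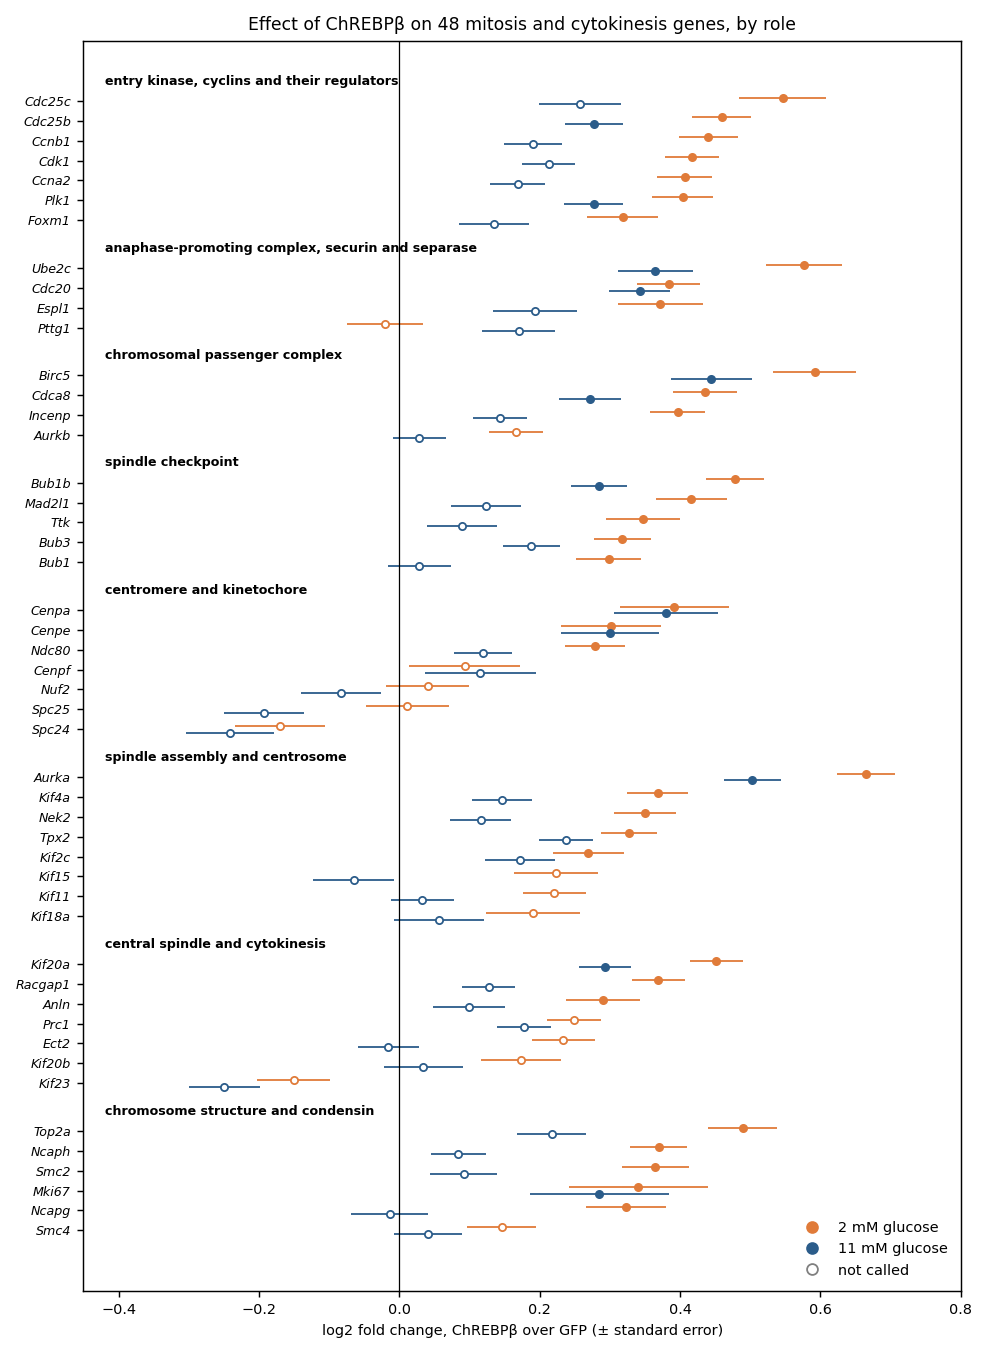
Log2 fold change (x axis, ± standard error of the edgeR fit) of ChREBPβ over GFP cells for the 48 mitosis and cytokinesis genes (y axis), grouped by role, at 2 mM (orange) and 11 mM glucose (blue); filled points were called. Called at 2 mM are 34 genes and at 11 mM 12 genes, and Spc24 and Kif23 lie below 0 at both concentrations.

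All 7 genes of the entry kinase, its cyclins and regulators were higher with ChREBPβ at 2 mM, with a median log2 fold change of 0.42. Cdk1, the kinase that drives entry into mitosis, measured 202, 209.8 and 208 CPM in the GFP libraries at 2 mM, 259.6, 252 and 272 CPM in those at 11 mM, 275, 274 and 278 CPM in the ChREBPβ libraries at 2 mM and 298, 303 and 308 CPM in those at 11 mM. The 4 groups do not overlap, and GFP cells at 2 mM are the lowest. ChREBPβ changed it by 0.42 ± 0.038 on the log2 scale at 2 mM (adjusted p = 1.4e-08), and the value at 11 mM was 0.21 ± 0.038, under the minimum fold change. Ccnb1, the cyclin B1 that activates Cdk1, measured 154, 165 and 153 CPM in the GFP libraries at 2 mM, 199, 218 and 207 CPM in those at 11 mM, 211, 214 and 216 CPM in the ChREBPβ libraries at 2 mM and 239, 241 and 233 CPM in those at 11 mM. GFP cells at 2 mM stand below the other groups and ChREBPβ cells at 11 mM above them, while the middle groups overlap. The change with ChREBPβ was 0.44 ± 0.042 at 2 mM (adjusted p = 2.7e-08) and 0.19 ± 0.042 at 11 mM, not called.

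Foxm1, a transcription factor that activates genes of late cell cycle, measured 65.2, 69 and 72.1 CPM in the GFP libraries at 2 mM, 76.8, 85.3 and 77.5 CPM in those at 11 mM, 84.3, 87.5 and 85.4 CPM in the ChREBPβ libraries at 2 mM and 90.9, 85.5 and 86.5 CPM in those at 11 mM. The GFP libraries at 2 mM are lowest, and at 11 mM the ChREBPβ libraries lie barely above the GFP ones. ChREBPβ raised Foxm1 by 0.32 ± 0.051 at 2 mM (adjusted p = 2.16e-05), and at 11 mM the value was 0.13 ± 0.05. Cdc25c, a phosphatase that switches Cdk1 on, measured 30.3, 33.1 and 32.1 CPM in the GFP libraries at 2 mM, 41.9, 38.1 and 45 CPM in those at 11 mM, 45.4, 46.2 and 47.8 CPM in the ChREBPβ libraries at 2 mM and 49.4, 52.8 and 47.5 CPM in those at 11 mM. Its log2 fold change of 0.55 ± 0.062 at 2 mM was the largest of this role, and at 11 mM it was 0.26 ± 0.059, just under the minimum fold change. The related phosphatase Cdc25b (0.46 ± 0.042 and 0.28 ± 0.041) and the kinase Plk1 (0.40 ± 0.043 and 0.28 ± 0.042) were called at both concentrations. Ccna2, which encodes cyclin A2, was called at 2 mM (0.41 ± 0.04) and had 0.17 ± 0.039 at 11 mM, under the minimum fold.

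Among the genes of the anaphase-promoting complex and its targets, Ube2c, the ubiquitin-conjugating enzyme of the complex, measured 82.2, 86.5 and 95.9 CPM in the GFP libraries at 2 mM, 115, 109 and 121 CPM in those at 11 mM, 129.9, 132 and 133 CPM in the ChREBPβ libraries at 2 mM and 140.3, 149 and 155 CPM in those at 11 mM. All 4 groups are apart. ChREBPβ raised Ube2c by 0.58 ± 0.054 at 2 mM (adjusted p = 2.11e-08) and by 0.36 ± 0.053 at 11 mM (adjusted p = 1.05e-05). Cdc20, which activates the complex at anaphase, rose at both concentrations (0.38 ± 0.044 and 0.34 ± 0.044), and Espl1, the separase that cuts cohesin, rose at 2 mM (0.37 ± 0.061) and had 0.19 ± 0.06 at 11 mM. Pttg1, the securin that holds separase inactive, measured 56.6, 62.8 and 59.5 CPM in the GFP libraries at 2 mM, 62.2, 58.1 and 62.4 CPM in those at 11 mM, 58.5, 56.9 and 61.1 CPM in the ChREBPβ libraries at 2 mM and 66, 66.9 and 72.9 CPM in those at 11 mM. Only the ChREBPβ libraries at 11 mM stand apart from the others, and neither comparison was called (-0.02 ± 0.054 at 2 mM and 0.17 ± 0.052 at 11 mM).

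The chromosomal passenger complex corrects faulty attachments and acts in cytokinesis. Its survivin subunit Birc5 measured 62.1, 61.3 and 63.9 CPM in the GFP libraries at 2 mM, 80.8, 70.8 and 80.4 CPM in those at 11 mM, 90.9, 95.5 and 95.6 CPM in the ChREBPβ libraries at 2 mM and 96.3, 107 and 113 CPM in those at 11 mM. The 4 groups do not overlap, and both ChREBPβ groups lie above both GFP groups. Birc5 rose by 0.59 ± 0.059 at 2 mM (adjusted p = 5e-08) and by 0.44 ± 0.058 at 11 mM (adjusted p = 2.41e-06). The borealin gene Cdca8 rose at both concentrations (0.44 ± 0.045 and 0.27 ± 0.044), and the scaffold Incenp rose at 2 mM (0.40 ± 0.039) and had 0.14 ± 0.039 at 11 mM. The kinase of the complex, Aurkb, was not called at either (0.17 ± 0.038 and 0.03 ± 0.038).

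All 5 spindle checkpoint genes were higher with ChREBPβ at 2 mM, with changes between 0.30 and 0.48 and a median of 0.35. Mad2l1, which encodes the checkpoint protein Mad2, measured 123, 121 and 105 CPM in the GFP libraries at 2 mM, 148, 153 and 152 CPM in those at 11 mM, 158, 156 and 151 CPM in the ChREBPβ libraries at 2 mM and 162, 163 and 169 CPM in those at 11 mM. GFP cells at 2 mM are lowest. It rose by 0.42 ± 0.051 at 2 mM (adjusted p = 7.53e-07) and had 0.12 ± 0.05 at 11 mM. Bub1b, a part of the inhibitor of the anaphase-promoting complex, had the largest change of the role (0.48 ± 0.041) and was the one checkpoint gene called at 11 mM (0.28 ± 0.04). Bub1 (0.30 ± 0.046), Bub3 (0.32 ± 0.041) and the kinase gene Ttk (0.35 ± 0.053) were called at 2 mM, with 0.03, 0.19 and 0.09 at 11 mM.

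The 7 centromere and kinetochore genes had the lowest median of the 8 roles at 2 mM (0.09), and a median of 0.12 at 11 mM, where 2 other roles were lower. Cenpa, the histone H3 variant that marks centromeres, measured 19.6, 19.4 and 16.2 CPM in the GFP libraries at 2 mM, 20.2, 17.9 and 18.9 CPM in those at 11 mM, 21.9, 24.5 and 25.6 CPM in the ChREBPβ libraries at 2 mM and 25.4, 24 and 24.9 CPM in those at 11 mM. The ChREBPβ libraries lie above the GFP libraries at either concentration, and the 2 concentrations overlap within each virus. Cenpa rose by 0.39 ± 0.077 at 2 mM (adjusted p = 2.22e-04) and by 0.38 ± 0.074 at 11 mM (adjusted p = 2.6e-04). The kinetochore kinesin gene Cenpe was called at both (0.30 ± 0.071 and 0.30 ± 0.07), and Cenpf at neither (0.09 ± 0.079 and 0.12 ± 0.079).

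The Ndc80 complex, which ties kinetochores to microtubules, has 4 subunits, and their transcripts did not move alike. Ndc80 itself rose with ChREBPβ at 2 mM (0.28 ± 0.042) and had 0.12 ± 0.041 at 11 mM. Nuf2 had 0.04 ± 0.059 and -0.08 ± 0.057, Spc25 had 0.01 ± 0.059 and -0.19 ± 0.057, and Spc24 had -0.17 ± 0.064 and -0.24 ± 0.062, none of them called. Spc24 measured 47.5, 51 and 49.8 CPM in the GFP libraries at 2 mM, 52.8, 45.8 and 52.5 CPM in those at 11 mM, 44.7, 43.3 and 44 CPM in the ChREBPβ libraries at 2 mM and 38.9, 46.2 and 42.9 CPM in those at 11 mM. At 2 mM the ChREBPβ libraries lie below the GFP ones, and at 11 mM 1 ChREBPβ library reaches into the GFP range. The adjusted p of Spc24 was 0.0288 at 2 mM and 0.0033 at 11 mM, with a change under the minimum fold.

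Of the 8 spindle assembly genes, Aurka changed most of all 48 genes. Aurka, the kinase that matures centrosomes and builds the spindle, measured 72.6, 73.1 and 76.6 CPM in the GFP libraries at 2 mM, 93.6, 94.5 and 93 CPM in those at 11 mM, 119, 117 and 117 CPM in the ChREBPβ libraries at 2 mM and 129, 137 and 132 CPM in those at 11 mM. All 4 groups are apart, with the ChREBPβ groups on top. It rose by 0.66 ± 0.041 at 2 mM (1.59-fold, adjusted p = 3.68e-11) and by 0.50 ± 0.04 at 11 mM (1.42-fold, adjusted p = 2.45e-09). Tpx2, which brings Aurka to the spindle, rose at 2 mM (0.33 ± 0.04) and had 0.24 ± 0.039 at 11 mM. The centrosome kinase gene Nek2 (0.35 ± 0.045), the chromokinesin gene Kif4a (0.37 ± 0.044) and Kif2c (0.27 ± 0.051), whose product takes microtubules apart, were also called at 2 mM. The kinesin genes Kif11 (0.22 ± 0.045), Kif15 (0.22 ± 0.06) and Kif18a (0.19 ± 0.067) were not, though each had an adjusted p under 0.05. At 11 mM none of these 6 was called, with values between -0.07 for Kif15 and 0.17 for Kif2c.

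Among the 7 genes of the central spindle and cytokinesis, Kif20a, a kinesin that brings the passenger complex to the central spindle, rose at both concentrations (0.45 ± 0.037 and 0.29 ± 0.037). Racgap1 (0.37 ± 0.038) and the anillin gene Anln (0.29 ± 0.053), which scaffolds the contractile ring, rose at 2 mM and had 0.13 and 0.10 at 11 mM. Prc1 (0.25 ± 0.039), Ect2 (0.23 ± 0.044) and Kif20b (0.17 ± 0.057) stayed under the minimum fold. Kif23, the kinesin that forms the centralspindlin complex with Racgap1, had a negative value at both (-0.15 ± 0.052 and -0.25 ± 0.051, adjusted p = 0.0179 and 3.95e-04) and was not called. Kif23 measured 91.7, 81.9 and 82.3 CPM in the GFP libraries at 2 mM, 100.2, 106 and 97.9 CPM in those at 11 mM, 76.5, 79.7 and 74.3 CPM in the ChREBPβ libraries at 2 mM and 88.9, 83.5 and 82.9 CPM in those at 11 mM. At either concentration the ChREBPβ libraries lie below the GFP libraries.

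**Figure D2:**
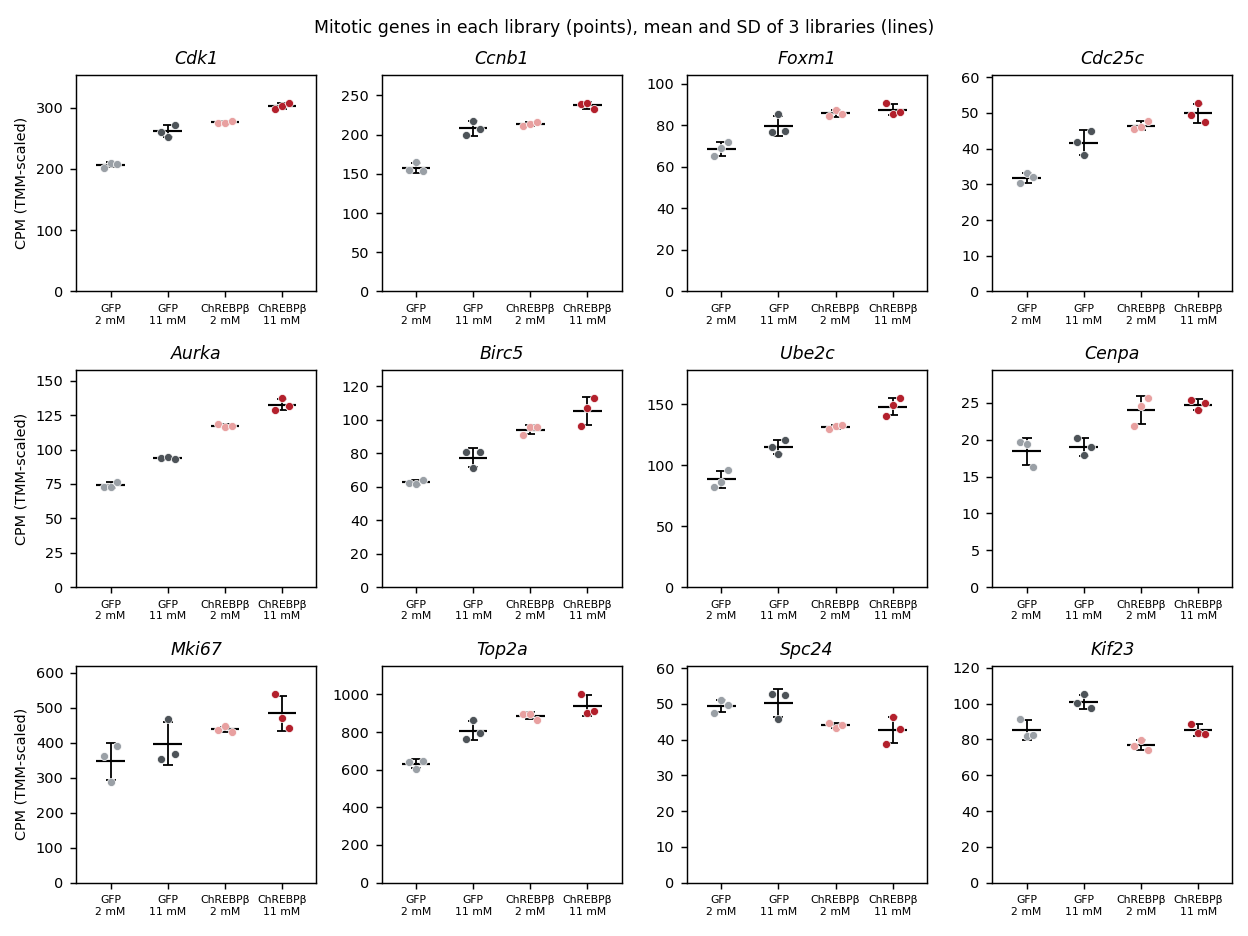
TMM-scaled CPM (y axis, linear from 0) of 12 mitosis and cytokinesis genes in the 12 libraries, with GFP or ChREBPβ at 2 or 11 mM glucose on the x axis; lines give the mean and SD of 3 libraries. Aurka rises from 72.6 to 76.6 CPM in GFP cells at 2 mM up to 129 to 137 CPM in ChREBPβ cells at 11 mM, while Spc24 and Kif23 are lower with ChREBPβ than with GFP on average.

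The ratio of partner subunits within a library does not depend on how libraries are scaled, and it was looked at after the values above were seen, so no test is given. Reads of Kif23 as a percent of reads of Racgap1 were 29.5, 25.7 and 28 in GFP cells at 2 mM, 25.3, 26.6 and 25 at 11 mM, 19.3, 19.8 and 18.8 in ChREBPβ cells at 2 mM and 20.6, 19 and 19.6 at 11 mM. Every ChREBPβ library lies below every GFP library. Reads of Spc24 as a percent of reads of Ndc80 averaged 61% ± 1.97 (SD, n = 3) in GFP cells at 2 mM, 51.8% ± 3.59 at 11 mM, 44.8% ± 2.27 in ChREBPβ cells at 2 mM and 40.4% ± 4.24 at 11 mM. The ratios of Spc25 and Nuf2 to Ndc80 were also lower with ChREBPβ, by 0.26 and 0.23 on the log2 scale at 2 mM and by 0.31 and 0.20 at 11 mM. The percents compare reads and not molecules, since transcript lengths differ.

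**Figure D3:**
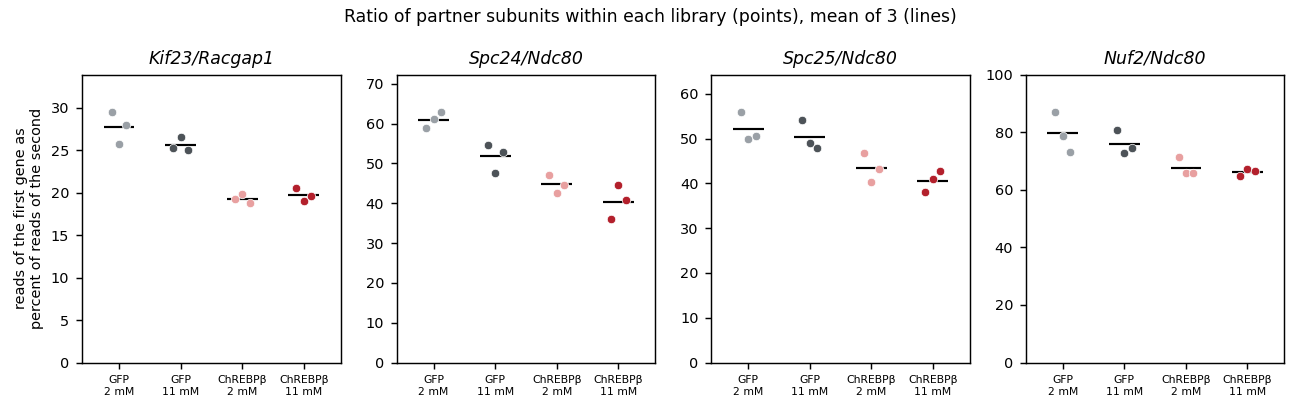
Reads of Kif23 as a percent of reads of its partner Racgap1, and of Spc24, Spc25 and Nuf2 as a percent of reads of Ndc80 (y axes, from 0), in each of the 12 libraries (points) by group (x axis), with the mean of 3 libraries (lines). The ratio Kif23/Racgap1 is 18.8% to 20.6% in ChREBPβ libraries and 25% to 29.5% in GFP libraries.

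Of the 6 genes of chromosome structure and condensin, 5 were higher with ChREBPβ at 2 mM, with a median of 0.35. Top2a, the topoisomerase that untangles sister chromatids, measured 642, 605 and 648 CPM in the GFP libraries at 2 mM, 765, 866 and 794 CPM in those at 11 mM, 898, 896 and 866 CPM in the ChREBPβ libraries at 2 mM and 1003, 902 and 913 CPM in those at 11 mM. GFP cells at 2 mM are lowest and GFP cells at 11 mM lie between them and the ChREBPβ groups, where library b at 866 CPM touches the range of ChREBPβ cells at 2 mM. Top2a rose by 0.49 ± 0.05 at 2 mM (adjusted p = 5.65e-08) and had 0.22 ± 0.049 at 11 mM. Ncapg, a subunit of condensin, measured 57.6, 57.4 and 55.1 CPM in the GFP libraries at 2 mM, 73.3, 81.4 and 69.5 CPM in those at 11 mM, 72.4, 73 and 67.5 CPM in the ChREBPβ libraries at 2 mM and 77, 70.7 and 74.3 CPM in those at 11 mM. GFP cells at 2 mM are apart from the other 3 groups, which overlap. It rose by 0.32 ± 0.057 at 2 mM (adjusted p = 6.56e-05) and had -0.01 ± 0.055 at 11 mM. The condensin genes Smc2 (0.36 ± 0.048) and Ncaph (0.37 ± 0.041) were called at 2 mM, and Smc4 (0.15 ± 0.049) was not.

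Mki67, the proliferation marker that coats mitotic chromosomes, measured 363, 287 and 389.6 CPM in the GFP libraries at 2 mM, 355, 469 and 369 CPM in those at 11 mM, 436, 447 and 432 CPM in the ChREBPβ libraries at 2 mM and 539.9, 470.4 and 442 CPM in those at 11 mM. At 2 mM the groups are apart, but at 11 mM library b of the GFP cells reaches the range of the ChREBPβ libraries. Its changes of 0.34 ± 0.099 at 2 mM (adjusted p = 0.0062) and 0.29 ± 0.099 at 11 mM (adjusted p = 0.0216) were called with wide errors. Mki67 had the largest spread between replicates of the 48 genes, with an SD of 15.4% of the mean in GFP cells at 2 mM and 15.7% at 11 mM, where the median of the 48 was 4.2% and 3.78%. Library b of GFP cells at 11 mM was the highest of its 3 for 22 of the 48 genes, among them Mki67, Cenpe, Cenpf, Kif20b, Kif11 and Top2a, and the lowest for 20, among them Birc5, Cdca8, Ube2c, Spc24 and Pttg1. Library a of ChREBPβ cells at 11 mM was likewise the highest for Mki67, Cenpe, Cenpf, Kif20b, Kif11 and Top2a and the lowest for Birc5, Cdca8, Ube2c, Spc24 and Pttg1. What sets these libraries apart was not tested.

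Leaving out 1 library ended the call of 4 of the 34 genes at 2 mM, each close to the minimum fold. Without library b of GFP cells at 2 mM, Mki67 had 0.22 and Cenpe 0.24. Kif2c was lost without ChREBPβ library b or c or GFP library a at 2 mM (0.22 at the lowest), and Ndc80 without ChREBPβ library b or GFP library c (0.26 at the lowest). At 11 mM, 5 of the 12 calls were lost when 1 library was left out, with values down to 0.20 for Mki67 (without GFP library a or c or ChREBPβ library a), 0.22 for Cenpe (without library a of either virus), 0.23 for Cdca8 (without GFP library b or ChREBPβ library b or c), 0.26 for Bub1b (without GFP library a) and 0.26 for Plk1 (without library b of either virus). Aurka, Birc5, Ube2c and Cenpa kept their calls at both concentrations under each other scaling and with any 1 library left out. In a test against a change of 1.2-fold the first 3 of these were still called at both, and Cenpa at neither.

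Raising glucose from 2 to 11 mM in GFP cells raised 25 of the 48 genes and lowered 0, where 10.2% of all genes were called higher and 10% lower. The median was 0.27, against -0.0024 over all genes, and 47 of the 48 values were positive. Unadjusted p was under 0.05 for 0 lower genes, and DESeq2 also called 0 lower. The largest changes were those of Ccnb1 (0.40 ± 0.042, adjusted p = 5.48e-07), Ncapg (0.40 ± 0.057, adjusted p = 1.91e-05) and Cdc25c (0.39 ± 0.062, adjusted p = 6.51e-05), whose values per library are given above. By role, 5 of 7 genes of the entry kinase group, 4 of 5 checkpoint genes and 3 of 4 passenger complex genes were higher. The counts were 5 of 8 for spindle assembly and 3 of 7 for cytokinesis. They were 2 of 4 for the anaphase-promoting complex and its targets, and 3 of 6 for chromosome structure and condensin. Of the centromere and kinetochore genes, 0 of 7 were called.

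The effects of glucose in GFP cells and of ChREBPβ at 2 mM are both measured against the same GFP libraries at 2 mM, so their values are given side by side. Kif11, Kif18a and Ect2 were called with glucose (0.37 ± 0.045, 0.28 ± 0.067 and 0.35 ± 0.044) and had 0.22, 0.19 and 0.23 with ChREBPβ, under the minimum fold. Cenpa and Cenpe were called with ChREBPβ and had 0.05 ± 0.079 and 0.13 ± 0.071 with glucose. Kif23 had 0.25 ± 0.051 with glucose (adjusted p = 9.15e-04), just under the minimum fold, and a negative value with ChREBPβ. The calls of Bub1, Cdca8, Espl1, Kif18a and Nek2 with glucose were lost when 1 library was left out, Bub1 and Kif18a without library c of the 2 mM group (0.25 and 0.19) or b of the 11 mM group, Nek2 without the first of these (0.25), Cdca8 without library a at 11 mM (0.25), and Espl1 without any of 4 libraries (0.22 at the lowest).

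In ChREBPβ cells, glucose changed 0 of the 48 genes by the same threshold, where 0.988% of all genes were called higher and 2.88% lower. DESeq2 also called 0, while unadjusted p was under 0.05 for 23 higher and 0 lower genes. The median was 0.10, against 0.0030 over all genes, and 45 of 48 values were positive. Without the minimum fold, 11 genes passed the adjusted p, among them Pttg1 (0.22 ± 0.053, adjusted p = 0.0132), Cdc20 (0.19 ± 0.044), Kif11 (0.18 ± 0.045) and Aurka (0.18 ± 0.04). The share of all genes by unadjusted p or without the minimum fold is not given here. The counts of 23 and 11 therefore do not show whether the set stands out. For Ncapg, the 95% interval of the change was -0.054 to 0.18 in ChREBPβ cells and 0.28 to 0.52 in GFP cells, which share no library.

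The difference between the effects of glucose in the cells with either virus, which equals the difference between the effects of ChREBPβ at 11 and 2 mM, was tested as an interaction. It was negative for 46 of the 48 genes, with a median of -0.18 against -0.01 over all genes. It was called lower for 8 genes and higher for 0, where 4.74% of all genes were lower and 1.56% higher. Unadjusted p was under 0.05 for 31 lower genes and 1 higher gene (Pttg1, 0.19 ± 0.075), and DESeq2 called 5 lower and 0 higher. The shares of all genes above do not apply to these counts, which therefore do not show whether the set stands out. The largest differences were those of Ncapg (-0.34 ± 0.079, adjusted p = 0.0112), Mad2l1 (-0.29 ± 0.071, adjusted p = 0.0141) and Kif15 (-0.29 ± 0.083, adjusted p = 0.0362).

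Kif15, a spindle kinesin, measured 33.5, 38.1 and 34.5 CPM in the GFP libraries at 2 mM, 41.5, 44.3 and 41.5 CPM in those at 11 mM, 43.3, 42.3 and 38.8 CPM in the ChREBPβ libraries at 2 mM and 40.4, 38.9 and 42.3 CPM in those at 11 mM. GFP cells at 2 mM are lowest, and the other 3 groups overlap. Cdc25c, Bub1, Top2a, Smc2 and Ncaph had differences between -0.29 and -0.27. Ncapg, Ncaph and Smc2 encode condensin subunits, while the condensin gene Smc4 (-0.10 ± 0.069) and 4 other condensin subunits measured were not called. By contrast, the difference was -0.01 ± 0.11 for Cenpa, -0.00 ± 0.1 for Cenpe, -0.04 ± 0.062 for Cdc20 and -0.06 ± 0.14 for Mki67. These calls rest on few libraries: with 1 library left out, 3 to 11 genes were called, and 4 without GFP library b at 11 mM, 3 without ChREBPβ library a at 2 mM, 5 without ChREBPβ library b at 2 mM and 4 without ChREBPβ library b at 11 mM. Ncapg kept its call in each of these, with RLE, upper quartile and library total scaling, and with DESeq2.

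**Figure D4:**
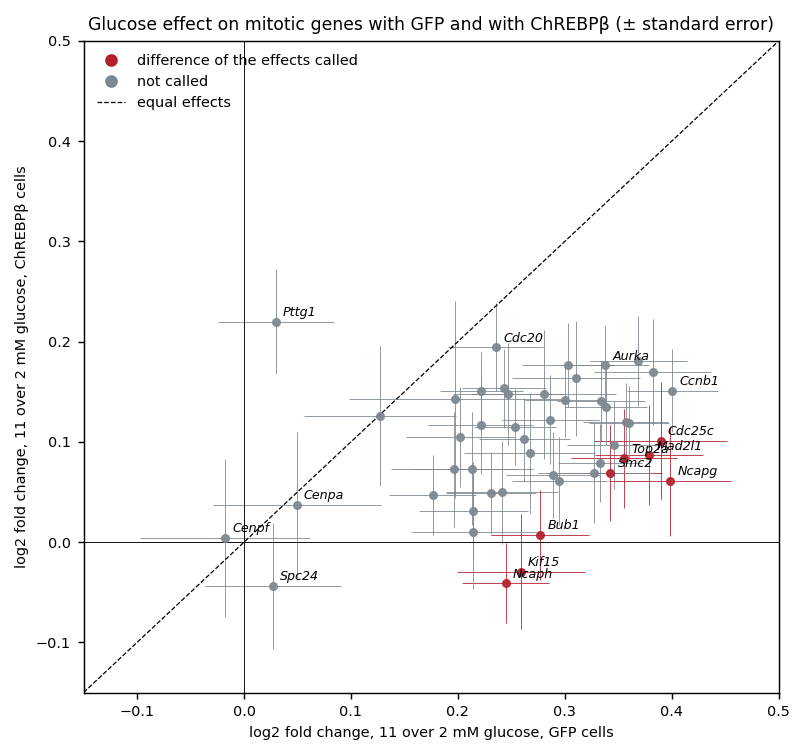
Log2 fold change from 2 to 11 mM glucose of each of the 48 genes in GFP cells (x axis) and in ChREBPβ cells (y axis), ± standard error; the dashed line marks equal effects, and red points are the 8 genes whose effects were called different. Nearly all points lie below the line, with a median of 0.27 on the x axis and 0.10 on the y axis.

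With both ChREBPβ and 11 mM glucose against GFP cells at 2 mM, 39 of the 48 genes were higher and 0 lower, where 23.7% of all genes were higher and 26.8% lower, and the median was 0.42. Aurka (0.84 ± 0.041), Birc5 (0.75 ± 0.059) and Ube2c (0.75 ± 0.054) changed most. The 9 genes not called were Spc24 (-0.21), Kif23 (-0.00), Spc25 (0.02), Cenpf (0.10), Nuf2 (0.11), Kif15 (0.19), Pttg1 (0.20), Kif20b (0.25) and Smc4 (0.26). Unadjusted p was under 0.05 for 1 gene with a negative value (Spc24), and DESeq2 called 0 lower.

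ChREBPβ at 2 mM and glucose at 11 mM were set against each other directly. Aurka (0.33 ± 0.04), Cenpa (0.34 ± 0.075) and Birc5 (0.28 ± 0.058) were higher in ChREBPβ cells at 2 mM than in GFP cells at 11 mM, and Kif23 was lower (-0.40 ± 0.051, adjusted p = 2.6e-06). The other 44 genes were not called, where 12.2% of all genes were higher and 14.8% lower, and the median was 0.06. With library totals the median was below 0 (-0.00795), 1 gene was higher and 3 were lower. The share of all genes called with library totals is not given here.

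Other genes of mitosis and of the rest of the cell cycle were described from lists. Of 88 other mitotic genes, 42 were higher and 2 lower with ChREBPβ at 2 mM, 12 higher and 0 lower at 11 mM, and 36 higher and 1 lower with glucose in GFP cells. Higher were thus 47.7% at 2 mM against 21% of all tested genes, 13.6% at 11 mM, close to the 14.3% of all tested genes, and 40.9% with glucose against 10.2%. Lower were 2.27% at 2 mM against 23.2%, 0% at 11 mM against 19.1%, and 1.14% with glucose against 10%. Wee1, the kinase that restrains Cdk1, had the largest increase (0.85 ± 0.05 at 2 mM and 0.65 ± 0.049 at 11 mM), followed at 2 mM by Cks1b (0.76 ± 0.046), a partner of cyclin-dependent kinases, and the kinetochore gene Zwilch (0.66 ± 0.059). The genes lowered at 2 mM were Anapc13 (-0.36 ± 0.084) and Cdc26 (-0.33 ± 0.054), both subunits of the anaphase-promoting complex. Among cohesin genes 2 of 11 (18.2%) were higher at 2 mM, below the 21% of all tested genes, and among other kinetochore subunits 17 of 29 (58.6%).

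Of 30 DNA replication genes, 18 were higher and 0 lower with ChREBPβ at 2 mM, with a median of 0.33, and 3 were higher and 1 lower at 11 mM. The share called higher was 60% at 2 mM, against 21% of all tested genes, and 10% at 11 mM, below the 14.3% of all tested genes. The share called lower was 0% at 2 mM against 23.2%, and 3.33% at 11 mM against 19.1%. Rrm2, a subunit of the enzyme that makes deoxyribonucleotides, rose at both (0.82 ± 0.055 and 0.45 ± 0.053), and Cdc6, which loads the replicative helicase, was the gene lowered at 11 mM (-0.32 ± 0.059). The interaction was called lower for 13 of the 30 and for 8 of the 48 mitotic genes, where 4.74% of all tested genes were lower. Of 19 transcription regulators of the cell cycle, 6 were higher (31.6%, against 21% of all tested genes) and 2 lower (10.5% against 23.2%) at 2 mM, with a median of 0.20. At 11 mM, 1 was higher (5.26%) and 2 were lower (10.5%), with a median of -0.03. Both shares at 11 mM are below those of all tested genes (14.3% and 19.1%). Called at 2 mM were, among others, E2f2 (0.77 ± 0.053), Rbl2 (-0.49 ± 0.058), a repressive pocket protein, and Tfdp2 (-0.57 ± 0.087).

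Some regulators of the start of the cycle changed more at 2 mM than any of the 48 genes did. Ccnd1, which encodes a D-type cyclin, rose by 5.82 ± 0.1 at 2 mM and 6.01 ± 0.094 at 11 mM on the log2 scale. At 2 mM its mean was 1.64 CPM with GFP, a low level, and 93.4 CPM with ChREBPβ. Myc rose by 1.49 ± 0.051 and 0.44 ± 0.047, and by 1.21 ± 0.051 with glucose in GFP cells. Cdkn1a, which encodes the cell cycle inhibitor p21, also rose with ChREBPβ (1.25 ± 0.047 and 1.23 ± 0.045), and the inhibitor gene Cdkn2c fell by 0.30 at 2 mM and by 0.46 at 11 mM. Of 7 inhibitor genes listed, 3 had enough reads to be tested.

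**Figure D5:**
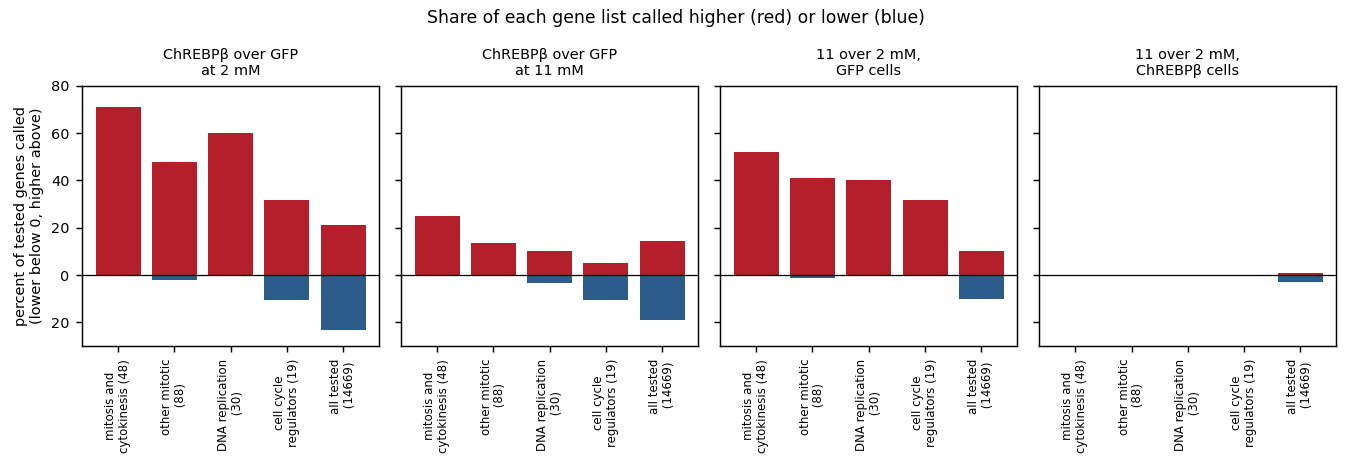
Percent of the tested genes of each list (x axis, number tested in brackets) called higher (red, above 0) or lower (blue, below 0) in 4 comparisons; the last bar is all tested genes. At 2 mM with ChREBPβ, 34 of 48 mitosis and cytokinesis genes are higher against 21% of all genes, and in ChREBPβ cells glucose changes 0 of them.

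RefSeq names pseudogenes of Cdk1, Ube2c, Aurka, Tpx2, Kif11, Prc1 and Mki67, and since none of them is in the count table, reads shared with a near copy could be counted or lost in a way that cannot be seen here. Values of these 7 genes are uncertain to that extent.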

How the data were processed

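RNA was measured in 12 libraries of INS-1 832/13 cells. The authors amplified the RNA before paired-end sequencing and deposited raw counts of reads per gene, not normalized; amplified reads are not independent molecules. Per the labels' processing notes the build was Rnor_6.0 and edgeR was used; the aligner and counter are not given in the sources used here. The authors also deposited a mean signal for each group, which equals the mean of the 3 counts within 0.001 in all 28728 rows and was used only for this check. An entry without a gene name (0.0043% to 0.00601% of a library) was left out. Libraries were grouped by their labels, and the main fit did not pair them by letter.

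Genes kept by filterByExpr were scaled by TMM (factors 0.958 to 1.06) and fitted together in edgeR 4.0.16 (R 4.3.3), with the group as factor, a quasi-likelihood test of the 6 pairwise comparisons and the interaction, and Benjamini-Hochberg adjustment over 14669 genes. The fit was run on simulated data in which 200 genes were changed, far fewer than were called in the comparisons by virus. The size of those changes and the result are not given here. That run therefore checks neither the scaling nor the calls near the minimum fold. ± after a log2 fold change is its standard error. Alternatives were DESeq2 1.42.0, library totals, the upper quartile and RLE factors of edgeR, the likelihood ratio test, other filters, other minimum folds, thinning, fits of the compared groups only, a replicate block and leaving out each library. Genes given with values in every library are the markers Mki67, Top2a, Cdk1, Ccnb1 and Foxm1 and the 3 largest called changes in each direction of 5 comparisons; Pttg1, Spc24 and Kif23 were added after their values were seen. Members and lists, cell type markers included, were chosen with earlier results of these data known. Each p-value sets a difference between groups against the spread between these libraries, an estimate that is shared in part across genes.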

Additional observations from a re-analysis of the deposited data

Results flagged for a closer look

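The effect of ChREBPβ was called different between the glucose concentrations for 8 genes, by the test of the difference itself. The log2 difference (effect at 11 mM minus effect at 2 mM, edgeR quasi-likelihood test) was -0.34 for Ncapg (adjusted p = 0.0112), -0.29 for Mad2l1 (adjusted p = 0.0141), -0.29 for Kif15 (adjusted p = 0.0362) and -0.29 for Cdc25c (adjusted p = 0.0417). It was -0.29 for Ncaph (adjusted p = 0.00338), -0.27 for Smc2 (adjusted p = 0.0162), -0.27 for Top2a (adjusted p = 0.02) and -0.27 for Bub1 (adjusted p = 0.0128). In each case the change at 11 mM was the smaller one.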

How the results depend on the processing

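No called gene changed direction under any alternative in the comparisons by virus, by glucose in GFP cells and of their interaction. The median for ChREBPβ at 2 mM against GFP at 11 mM turned from 0.06 to -0.00795 with library totals. Of the genes called, 22 of 34 at 2 mM, 4 of 12 at 11 mM, 19 of 25 with glucose in GFP cells and 1 of 8 (Ncapg) in the interaction were called in every alternative other than the stricter fold thresholds. With library totals, 22 genes were higher and 1 lower with ChREBPβ at 2 mM, 4 higher and 3 lower at 11 mM, 1 lower with ChREBPβ at 11 mM against GFP at 2 mM, 1 higher and 3 lower with ChREBPβ at 2 mM against GFP at 11 mM, and 4 lower in the interaction. With upper quartile factors, 6 were higher and 2 lower at 11 mM, 1 was lower with ChREBPβ at 11 mM against GFP at 2 mM, and 2 were lower in the interaction. The interaction kept 4 lower genes with RLE factors and 5 with DESeq2. Against a fold change of 1.2, glmTreat called 22 higher at 2 mM, 3 at 11 mM, 5 with glucose in GFP cells, 0 higher with ChREBPβ at 2 mM against GFP at 11 mM and 0 in the interaction. With no minimum fold, 2 were lower at 2 mM, 30 higher and 3 lower at 11 mM, 42 higher with glucose in GFP cells, 11 higher with glucose in ChREBPβ cells, 1 lower with ChREBPβ at 11 mM against GFP at 2 mM, 13 higher and 6 lower with ChREBPβ at 2 mM against GFP at 11 mM, and 18 lower in the interaction. With a minimum of 2-fold, 0 were called in any comparison. The counts of this section are not set against the share of all genes called under each alternative. Leaving out 1 library gave 0 to 1 lower gene at 11 mM and for ChREBPβ at 11 mM against GFP at 2 mM, and 3 to 11 in the interaction.

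With the replicate block 34 genes were higher at 2 mM, 12 at 11 mM and 25 with glucose in GFP cells, and 7 were lower in the interaction, so the block moved no count by more than 1.5 times. No clear pairing of the libraries by letter was seen: 3 of 18 same-letter pairs correlated over 0.1 (-0.276 to 0.163), and 6 of 12 libraries correlated best with their own letter. These values were not set against a null, so they cannot exclude pairing. A fit of the compared groups only was not run for the interaction. With 3 libraries a group, changes near the minimum fold depend on single libraries. With all libraries thinned to the smallest total, 33 genes were higher at 2 mM, 12 at 11 mM and 27 with glucose in GFP cells, and 6 were lower in the interaction.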
